A study of Mus musculus with 11 samples.

Results

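*Foxf1*, *Foxf2*, *Foxl1*, *Foxd1* and *Foxd2* are 5 forkhead genes of the craniofacial mesenchyme whose expression depends on Hedgehog (Hh) signaling. They were taken as the rows of the deposited expression table with these symbols, 5 of 16755 genes, and all 5 are listed in every library. The RNA came from molar tooth germs of the upper jaw at E14.5, the cap stage, with n = 6 per biological replicate. The sources do not say whether 6 counts tooth germs or embryos. Wild-type germs gave 4 libraries. *Cilk1*-/- germs, homozygous for a *Cilk1* allele that lacks 1 exon in all tissues, gave 4 libraries. The third group was homozygous both for this allele and for a deletion from PCS1 to MRCS1, which removes enhancers of *Shh*, and is called the compound mutant here; it gave 3 libraries. All mice were kept on a C57BL/6 background, both sexes were mixed, and no group carried the enhancer deletion alone.

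Forkhead genes encode transcription factors that bind DNA through a winged-helix domain. Sonic hedgehog made by the oral and dental epithelium signals to the mesenchyme beneath it, where signal transduction runs through the primary cilium and ends at the Gli transcription factors. *Foxf1*, *Foxf2*, *Foxl1*, *Foxd1* and *Foxd2* are induced by Hh signals in mesenchyme of several organs, *Foxf2* is required for closure of the palate, and Cilk1 is a kinase that controls transport within the cilium. The comparisons therefore ask how far these genes changed when the kinase was lost, and whether they changed further when *Shh* enhancers were deleted as well.

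Values are given as log2(value + 1), where the value is probably FPKM (fragments scaled by gene length and library size), and the depth behind them is unknown. A linear value is this value turned back from the log2 scale. Calls required a fold change of at least 1.5 on the log2(value + 1) scale, which shrinks the fold change of genes with low values. They also required, in limma, an adjusted p-value under 0.05 (Benjamini-Hochberg over all 16755 genes). Wild-type and *Cilk1*-/- libraries of the same replicate number were not independent, so the adjusted p from a fit with a block for replicate number stands beside each call that it ended. *Cilk1*, listed under its older symbol *Ick*, was at 3.45 to 3.60 in wild type, 2.72 to 2.86 in *Cilk1*-/- and 2.60 to 2.67 in the compound mutant. Compound mutant replicate 1 stood apart on the first principal component of all genes, at 48.5 where the other libraries lay between -11.2 and 6.63, and its markers of cartilage and neurons were the highest of all libraries. Calls in the compound mutant are given with and without it.

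*Foxf1* and *Foxf2* were the strongly expressed pair in wild-type germs, and *Foxd1*, *Foxd2* and *Foxl1* were low. On the length-scaled linear values, *Foxf1* averaged 43.9, *Foxf2* 29.7, *Foxd1* 3.07, *Foxd2* 2.24 and *Foxl1* 1.77 in wild type. *Foxf1* exceeded *Foxf2* in each wild-type library, where *Foxf2* reached 59.8% to 86.0% of its value. *Foxd1* lay above *Foxl1* in each wild-type library, whereas *Foxd2* ranged across both and could not be ordered against them. Of the 32 forkhead genes listed, *Foxf1* ranked 1st and *Foxf2* 3rd, with the ubiquitous *Foxp4* between them, while *Foxd1*, *Foxd2* and *Foxl1* ranked 17th, 20th and 21st.

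**Figure D1:**
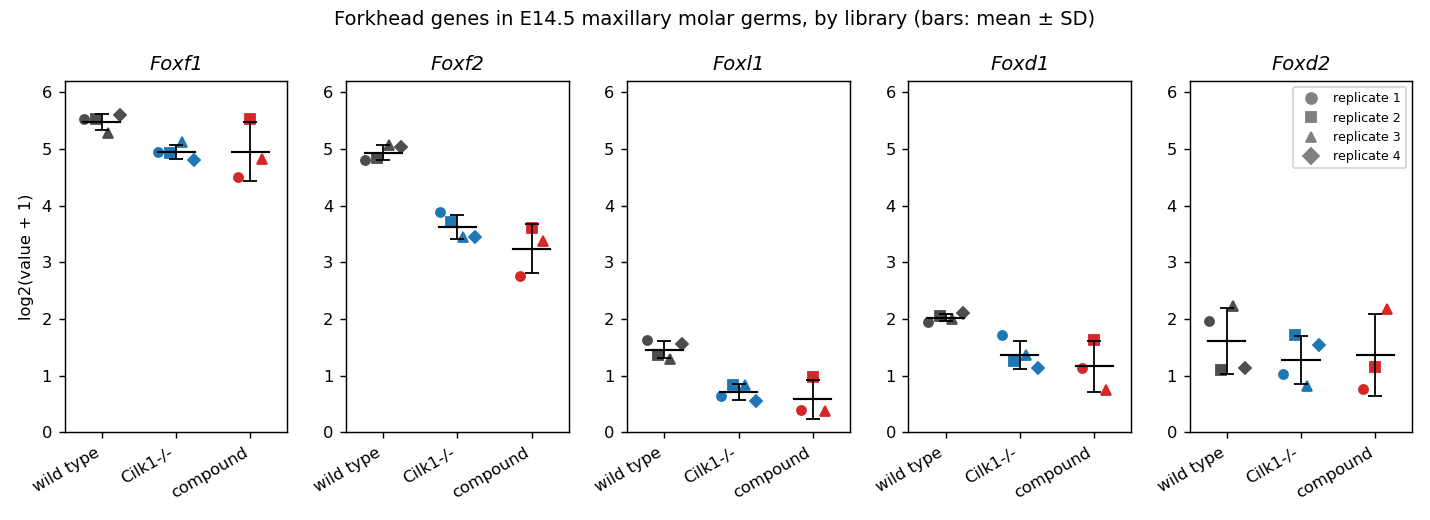
Expression of the 5 forkhead genes in each library as log2(value + 1), with 1 panel per gene, 1 symbol per replicate number, and lines for the mean ± SD of 4 wild-type, 4 *Cilk1*-/- and 3 compound mutant libraries. *Foxf2*, *Foxl1* and *Foxd1* in both mutants lie below all wild-type libraries, *Foxf1* does so in *Cilk1*-/-, and *Foxd2* spreads across the genotypes.

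In *Cilk1*-/- germs, *Foxf2* and *Foxl1* fell, and in the compound mutant *Foxf2*, *Foxl1* and *Foxd1* fell. None of the 5 genes was called higher. Against wild type, 2 of 5 were called lower in *Cilk1*-/-, where 0.215% of all genes were called lower and 0.155% higher. Of the same 5, 3 were called lower in the compound mutant, where 0.633% of all genes were called lower and 0.615% higher. The mutant libraries lay wholly below wild type for 4 of 5 genes in *Cilk1*-/- (10.7% of all genes) and for 3 of 5 in the compound mutant (9.05% of all genes). With the replicate block, 0 of 5 were called in *Cilk1*-/- (0.0119% of all genes lower) and 1 of 5, *Foxf2*, in the compound mutant (0.113%). With an unadjusted p under 0.05 and the same fold change, limma passed 3 of 5 in each mutant, *Foxf2*, *Foxl1* and *Foxd1*, against 0.340% and 0.943% of all genes without the block and 0.352% and 0.955% with it. Less RNA per cell and fewer cells of a type cannot be told apart in whole germs.

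*Foxf2* changed most on the log2(value + 1) scale. This gene on mouse chromosome 13 (ENSMUSG00000038402, GRCm38 chr13:31625816-31631403, plus strand, 2 exons) encodes a factor of oral and palatal mesenchyme. The wild-type libraries 1 to 4 were at 4.81, 4.84, 5.06 and 5.03. *Cilk1*-/- libraries 1 to 4 were at 3.88, 3.72, 3.46 and 3.45, and compound mutant libraries 1 to 3 at 2.76, 3.60 and 3.37. Each mutant library lay below the lowest wild-type one, while the mutants overlapped each other. The log2 fold change was -1.31 (SE 0.165) in *Cilk1*-/-, with an adjusted p of 0.00712 in limma, and 0.0846 with the replicate block. In the compound mutant it was -1.69 (SE 0.178), with an adjusted p of 0.00198 in limma and 0.0342 with the block. The mean linear value was 38.6% of wild type in *Cilk1*-/- and 29.4% in the compound mutant. The exact two-sided permutation test gave p = 0.0286 for each mutant, which is the lowest p that these numbers of libraries can give. Here and for the genes below, this p follows from the lack of overlap alone and adds nothing to it. The test also takes the libraries as independent. Without compound mutant replicate 1, the change in the compound mutant was -1.45 and remained called.

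The bases directly before *Foxf2* are shown because its nearest listed neighbour starts there. The lincRNA gene *1700018A04Rik* (chr13:31565492-31625792, minus strand) begins 24 bases from the start of *Foxf2* and runs the other way, and 227 of the 250 bases before *Foxf2* lie inside it. The window of 250 bases (RefSeq, GRCm38.p6, chr13:31625566-31625815, plus strand, 5′ to 3′) has its GC boxes, GGGCGG on either strand, in capitals.
Foxf2: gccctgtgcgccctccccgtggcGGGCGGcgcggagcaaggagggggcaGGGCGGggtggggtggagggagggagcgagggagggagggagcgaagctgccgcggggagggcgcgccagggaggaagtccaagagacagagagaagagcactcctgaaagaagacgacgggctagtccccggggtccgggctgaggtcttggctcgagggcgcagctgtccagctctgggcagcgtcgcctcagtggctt
It holds 2 GC boxes, starting at -227 and -201 from the gene's start, and is 71.6% G or C, above 92.7% of the 32851 windows of the same length before genes, whose median is 52.4%. On either strand 32.7% of these windows hold a GC box.

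*1700018A04Rik* fell together with *Foxf2*. Its wild-type libraries 1 to 4 were at 1.75, 1.89, 1.71 and 2.18, its *Cilk1*-/- libraries at 1.31, 1.07, 1.23 and 0.65, and its compound mutant libraries 1 to 3 at 0.74, 1.07 and 1.29. All 7 mutant libraries lay below the 4 wild-type ones. The log2 fold change was -0.82 (SE 0.168, adjusted p = 0.0374 in limma and 0.172 with the block) in *Cilk1*-/-. It was -0.85 (SE 0.181, adjusted p = 0.0259 in limma and 0.145 with the block) in the compound mutant, and without compound mutant replicate 1 it was -0.71 and not called (adjusted p = 0.0600). The next forkhead genes on this chromosome were not called: *Foxq1*, 64840 bases before *Foxf2*, changed by -0.02 in *Cilk1*-/- and -0.14 in the compound mutant, and *Foxc1*, 175230 bases after it, by -0.04 and 0.65 (adjusted p of 0.965, 0.630, 0.972 and 0.379 in limma).

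*Foxf1* was lower by a smaller amount and was not called. It lies on chromosome 8 (ENSMUSG00000042812, chr8:121084386-121088144, plus strand, 2 exons) and encodes a factor needed in mesenchyme of lung and gut. Its wild-type libraries 1 to 4 were at 5.53, 5.53, 5.28 and 5.59, its *Cilk1*-/- libraries at 4.94, 4.93, 5.12 and 4.81, and its compound mutant libraries 1 to 3 at 4.51, 5.54 and 4.82. *Cilk1*-/- did not overlap wild type, whereas compound mutant replicate 2 was within the wild-type range. The log2 fold change was -0.53 (SE 0.180, adjusted p = 0.132 in limma) in *Cilk1*-/- and -0.53 (SE 0.194, adjusted p = 0.122) in the compound mutant. With the 2 genotypes alone, the adjusted p in *Cilk1*-/- was 0.00607 in limma, and the call was missed on the fold change. On leaving out each library in turn, the adjusted p in *Cilk1*-/- was 0.0161 to 0.291. The two-sided permutation p was 0.0286 for *Cilk1*-/- and 0.114 for the compound mutant in the exact test. Without compound mutant replicate 2, the change in the compound mutant was -0.82 with an adjusted p of 0.00270 in limma, past the threshold, so that 1 library decided this call. Without compound mutant replicate 1 it was -0.31 (adjusted p = 0.324 in limma).

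*Foxf2* was a smaller share of *Foxf1* in each mutant library than in any wild-type one. The test of this difference did not pass after adjustment, which these numbers of libraries made nearly certain. *Foxf2* minus *Foxf1* on the log2 scale was -0.72 to -0.21 in wild type, -1.67 to -1.06 in *Cilk1*-/- and -1.94 to -1.45 in the compound mutant. As a share of *Foxf1*, *Foxf2* was at 59.8% to 86.0%, 29.5% to 46.4% and 24.5% to 34.3%, so that neither mutant overlapped wild type while the mutants overlapped each other. The exact two-sided permutation test of this difference gave p = 0.0286 for each mutant, the smallest possible, and 0.114 between the mutants. Adjusted over the 12 such tests that were run on differences between gene pairs, these became 0.171, 0.171 and 0.274. The smallest possible p passes this adjustment only where most of the 12 tests reach it, so the adjusted values do not decide the question. Of the summed linear value of the 5 genes, *Foxf1* made up 54.4% on average in wild type, 66.4% in *Cilk1*-/- and 71.4% in the compound mutant. *Foxf2* made up 36.9%, 25.3% and 20.1%.

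**Figure D2:**
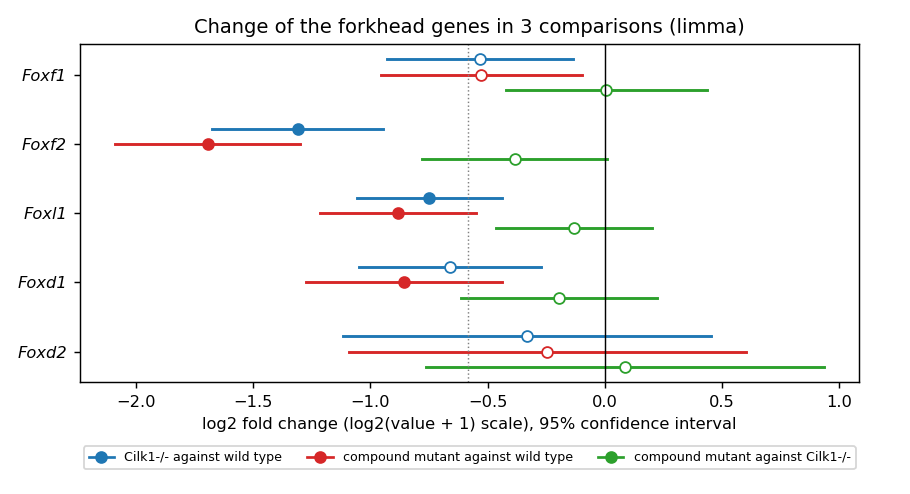
Log2 fold change of each forkhead gene with its 95% confidence interval from limma, on the log2(value + 1) scale, for *Cilk1*-/- against wild type, the compound mutant against wild type and the compound mutant against *Cilk1*-/-. Filled points were called, the dotted line marks a 1.5-fold decrease, and the intervals of the compound mutant against *Cilk1*-/- all include 0.

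*Foxl1* lies 39796 bases beyond *Foxf1* on the same strand (ENSMUSG00000097084, chr8:121127940-121130644, 1 exon) and encodes a factor of mesenchyme beneath epithelia, best known from the gut. Its wild-type libraries 1 to 4 were at 1.63, 1.37, 1.29 and 1.55, its *Cilk1*-/- libraries at 0.63, 0.84, 0.83 and 0.55, and its compound mutant libraries 1 to 3 at 0.40, 0.98 and 0.37. All mutant libraries were below the lowest wild-type one. The log2 fold change was -0.75 (SE 0.139) in *Cilk1*-/-, with an adjusted p of 0.0272 in limma and 0.149 with the replicate block. The compound mutant gave -0.88 (SE 0.150), with an adjusted p of 0.0130 in limma and 0.0871 with the block. At such low values the log2(value + 1) scale understates a change, and with a pseudocount of 0.1 the fold changes were -1.34 and -1.73. Mean linear values were 36.5% and 29.7% of wild type, shares like those of *Foxf2*, and the exact two-sided permutation p was 0.0286 for each mutant. The call in *Cilk1*-/- was lost on leaving out any 1 of the 8 wild-type or *Cilk1*-/- libraries, with adjusted p of 0.0603 to 0.101 in limma, and the call in the compound mutant was kept in all 11 such fits. In a fit of the compound mutant and wild type alone it was lost (adjusted p = 0.0820 in limma).

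Of the other listed genes between and around *Foxf1* and *Foxl1*, none was called in either mutant. *Gm20388*, a protein-coding gene that spans both on the same strand, is not listed and was not tested. *Fendrr*, a noncoding RNA gene that starts 1276 bases from *Foxf1* and runs away from it, changed by -0.21 in each mutant (adjusted p of 0.497 and 0.443 in limma). Its libraries overlapped between the genotypes, at 4.75 to 5.26 in wild type, 4.50 to 4.95 in *Cilk1*-/- and 4.48 to 5.17 in the compound mutant. *Foxc2*, a forkhead gene of mesoderm that lies between the pair, 9045 bases before *Foxl1*, changed by -0.14 and 0.28 (adjusted p of 0.735 and 0.387). *Mthfsd*, the enzyme gene beside it, changed by 0.01 and 0.14 (adjusted p of 0.940 and 0.135).

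**Figure D3:**
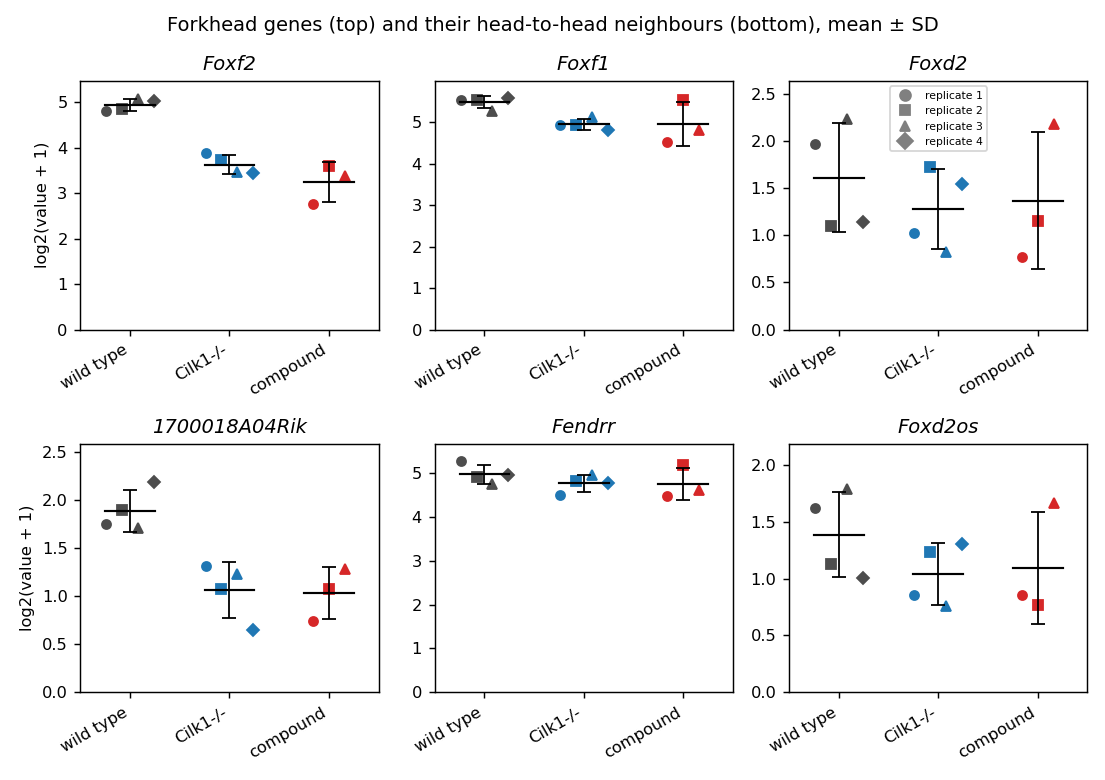
Expression by library, as log2(value + 1), of *Foxf2*, *Foxf1* and *Foxd2* (top) and of the noncoding neighbour that starts next to each and runs the other way (bottom), with mean ± SD of 4 wild-type, 4 *Cilk1*-/- and 3 compound mutant libraries. *1700018A04Rik* lies below wild type in all 7 mutant libraries, *Fendrr* overlaps between genotypes, and *Foxd2os* is high and low in the same libraries as *Foxd2*.

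*Foxd1* fell in the compound mutant. It lies on chromosome 13 (ENSMUSG00000078302, chr13:98354242-98359305, plus strand, 1 exon) and encodes a factor known from stroma of the kidney and from facial mesenchyme. Its wild-type libraries 1 to 4 were at 1.94, 2.05, 2.002 and 2.10, its *Cilk1*-/- libraries at 1.71, 1.26, 1.36 and 1.13, and its compound mutant libraries 1 to 3 at 1.13, 1.63 and 0.74. Wild type was the tightest group, and all 7 mutant libraries lay below it. The log2 fold change was -0.66 (SE 0.175, adjusted p = 0.0736 in limma) in *Cilk1*-/-. The compound mutant gave -0.86 (SE 0.189), with an adjusted p of 0.0293 in limma and 0.125 with the replicate block. Mean linear values were 52.2% and 43.0% of wild type, and the exact two-sided permutation p was 0.0286 for each mutant. The call in the compound mutant was lost on leaving out any 1 wild-type library or compound mutant replicate 1, with adjusted p of 0.0535 to 0.0872 in limma. In *Cilk1*-/-, *Foxd1* passed without compound mutant replicate 2 or 3, at adjusted p of 0.0215 and 0.0269, and with the 2 genotypes alone, at 0.00826. The same restriction to 2 genotypes ended its call in the compound mutant (adjusted p = 0.103 in limma). None of its 6 nearest listed neighbours was called in either mutant.

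*Foxd2* did not differ detectably. It lies on chromosome 4 (ENSMUSG00000055210, chr4:114906282-114908873, minus strand, 1 exon), is the closest relative of *Foxd1* in this set and is likewise expressed in facial mesenchyme. Its wild-type libraries 1 to 4 were at 1.96, 1.10, 2.23 and 1.14, its *Cilk1*-/- libraries at 1.02, 1.72, 0.82 and 1.55, and its compound mutant libraries 1 to 3 at 0.77, 1.15 and 2.17. Numbers 1 and 3 were high in wild type and low in *Cilk1*-/-, and numbers 2 and 4 were the reverse. The log2 fold change was -0.33 (95% confidence interval -1.12 to 0.45) in *Cilk1*-/- and -0.24 (-1.09 to 0.60) in the compound mutant, so that a decrease as large as that of *Foxd1* lay within both intervals. The adjusted p in limma was 0.650 and 0.718, and the exact two-sided permutation p was 0.371 and 0.629.

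*Foxd2os*, a noncoding RNA gene that starts 384 bases from *Foxd2* on the other strand, was at 1.62, 1.13, 1.79 and 1.01 in wild type and at 0.86, 1.23, 0.76 and 1.31 in *Cilk1*-/-. Its compound mutant libraries were at 0.85, 0.77 and 1.66. It was thus high where *Foxd2* was high, and *Foxd2* minus *Foxd2os* stayed between -0.08 and 0.51 in all 11 libraries. The spread of *Foxd2* was therefore shared by its neighbour within each library. *Trabd2b*, a gene of a Wnt-inhibiting protease, lies on the other side of *Foxd2*, 291184 bases from it. It fell by 0.81 on the log2 scale in the compound mutant (adjusted p = 0.00342 in limma, 0.0712 with the block). In *Cilk1*-/- its change of -0.58 (adjusted p = 0.0169 in limma) was just under 1.5-fold on the log2(value + 1) scale, and was not called. Its mean linear values were 4.98 in wild type and 3.01 in *Cilk1*-/-, a larger change than that scale shows. The call in the compound mutant remained without replicate 1, at -0.78.

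The windows before *Foxd1* and *Foxd2* are shown so that the 3 windows that were matched can be read side by side. They are RefSeq sequences of GRCm38.p6, 5′ to 3′ on the gene's own strand, at chr13:98353995-98354244 (plus) and chr4:114908899-114909148 (minus), with CCAAT and GC boxes in capitals, each read on both strands.
Foxd1: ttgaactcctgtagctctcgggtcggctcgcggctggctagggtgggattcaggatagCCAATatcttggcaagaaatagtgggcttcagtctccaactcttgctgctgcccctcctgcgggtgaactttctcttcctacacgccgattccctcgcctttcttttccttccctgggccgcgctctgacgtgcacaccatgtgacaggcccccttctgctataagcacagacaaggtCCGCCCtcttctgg
Foxd2: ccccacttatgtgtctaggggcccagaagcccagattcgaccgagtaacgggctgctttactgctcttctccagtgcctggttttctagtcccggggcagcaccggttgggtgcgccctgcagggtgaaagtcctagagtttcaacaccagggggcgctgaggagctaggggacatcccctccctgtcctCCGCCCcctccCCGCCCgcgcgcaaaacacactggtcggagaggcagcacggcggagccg
The window of *Foxd1* is 57.2% G or C, with a CCAAT box at -192 and a GC box on the opposite strand at -14. That of *Foxd2* is 64.4% G or C and has GC boxes on the opposite strand at -60 and -49. These positions are counted from the end of each window. For *Foxd1* that end lies just inside the gene as placed above, and for *Foxd2* it lies short of the gene. CCAAT is found in 33.9% of the 32851 windows. None of the 3 windows holds the Gli sequence GACCACCCA (0.225% of all windows), the forkhead sequence TGTTTAC (3.17%) or TATAAA (12.4%) on either strand. Windows were matched for these 3 of the 5 genes.

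*Cilk1*-/- was also set against wild type by replicate number, which is not shown to pair the libraries. On the log2 scale, *Foxf2* differed by -0.93, -1.12, -1.61 and -1.58 in pairs 1 to 4. *Foxl1* differed by -0.9994, -0.53, -0.46 and -1.003, *Foxd1* by -0.23, -0.80, -0.65 and -0.97, and *Foxf1* by -0.59, -0.61, -0.16 and -0.78. For these 4 genes all 4 pairs pointed the same way, with an exact p of 0.125 when genotypes were swapped within pairs, the smallest that 4 pairs allow. Their *Cilk1*-/- libraries lay wholly below wild type, so any pairing would give these signs and this p, which add nothing to the lack of overlap. *Foxd2* differed by -0.94, 0.63, -1.42 and 0.41 (exact p = 0.625). The numbering of the samples places pair 4 in one set with the compound mutant and pairs 1 to 3 in another, while their titles name no set. The 4 genes were lower in both sets, where pair 4 is 1 library of each genotype. With the set as a term, *Foxf2* stayed called in both mutants (adjusted p of 0.0194 and 0.0468 in limma), while *Foxl1* (0.0577 and 0.162) and *Foxd1* in the compound mutant (0.244) did not. In the replicate block that placed the compound mutant with pair 4 (tried only after the data had been seen), 0 of 5 genes were called in either mutant, as were 0.0119% and 0% of all genes.

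**Figure D4:**
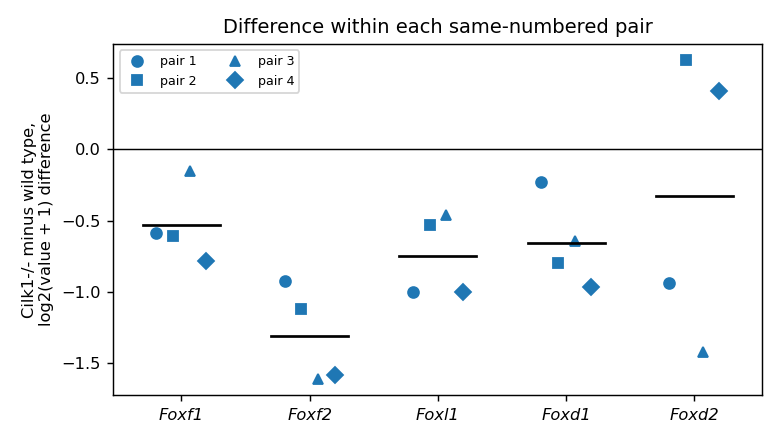
*Cilk1*-/- minus wild type for each same-numbered pair of libraries, as a difference of log2(value + 1), with a line at the mean of 4 pairs. *Foxf1*, *Foxf2*, *Foxl1* and *Foxd1* are below 0 in 4 of 4 pairs and *Foxd2* in 2 of 4.

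Between the compound mutant and *Cilk1*-/-, none of the 5 genes was called, where 0.388% of all genes were called lower and 0.155% higher. None passed at an unadjusted p under 0.05 with the fold change either (0.973% of all genes lower), and the libraries overlapped for all 5 (9.30% of all genes were wholly lower). *Foxf2* differed by -0.38 on the log2 scale, with a 95% confidence interval of -0.78 to 0.011 and an adjusted p of 0.227 in limma. This difference was -0.14 without compound mutant replicate 1 and -0.56 without replicate 2 (adjusted p of 0.583 and 0.0755). *Foxl1* differed by -0.13 (-0.46 to 0.20), *Foxd1* by -0.20 (-0.62 to 0.22), *Foxf1* by 0.0063 (-0.42 to 0.44) and *Foxd2* by 0.086 (-0.76 to 0.93). The interval for *Foxf2* thus holds both a further decrease and no change. The exact two-sided permutation p was 0.2 for *Foxf2* and 0.429 to 0.914 for the other genes. The direction of the *Foxf1*, *Foxd1* and *Foxd2* differences changed when single libraries were left out, and that of *Foxl1* ranged from -0.33 without compound mutant replicate 2 to -0.03 without replicate 3. The comparisons with wild type share the wild-type libraries and are given side by side only.

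Few other forkhead genes were called. Of 39 further family members sought, 27 were listed. In *Cilk1*-/-, 0 of 27 were called, and their median change was 0.021 where that of all genes was 0.003. Of the 27, 1 was called in the compound mutant, with a median of 0.047 where that of all genes was -0.002. Their changes ran from -0.27 to 0.36 in *Cilk1*-/- and from -0.91 to 1.15 in the compound mutant. That gene, *Foxe1*, a factor of thyroid and oral epithelium, was at 2.53 to 2.92 in wild type, 2.42 to 2.80 in *Cilk1*-/- and 1.53 to 2.31 in the compound mutant. It fell in the compound mutant by 0.91 on the log2 scale against wild type (adjusted p = 0.0202 in limma, 0.123 with the block). Against *Cilk1*-/- it fell by 0.79 (adjusted p = 0.0453, 0.215 with the block). These changes of *Foxe1* were -0.77, still called, and -0.65, not called, without compound mutant replicate 1 (adjusted p of 0.0485 and 0.0989 in limma). Of the 27, 3 lay wholly below wild type in the compound mutant, as did 9.05% of all genes, and 4 lay wholly above it. The share of all genes wholly above is not given here, so the count of 4 cannot be judged. Chosen from the 4 after their values were seen, *Foxj1*, a factor of motile cilia, and *Foxo6* were higher by 1.15 and 0.89. Neither was called (adjusted p of 0.153 and 0.121 in limma). Each differed by 0.35 without compound mutant replicate 1. The highly expressed *Foxp4*, *Foxm1*, *Foxk2* and *Foxo4*, which are factors of many cell types, changed by 0.02, -0.27, -0.09 and 0.03 in *Cilk1*-/- and were not called. *Foxm1* was wholly below wild type there, with an adjusted p of 0.0371 in limma (0.161 with the block), and missed the call on its fold change.

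**Figure D5:**
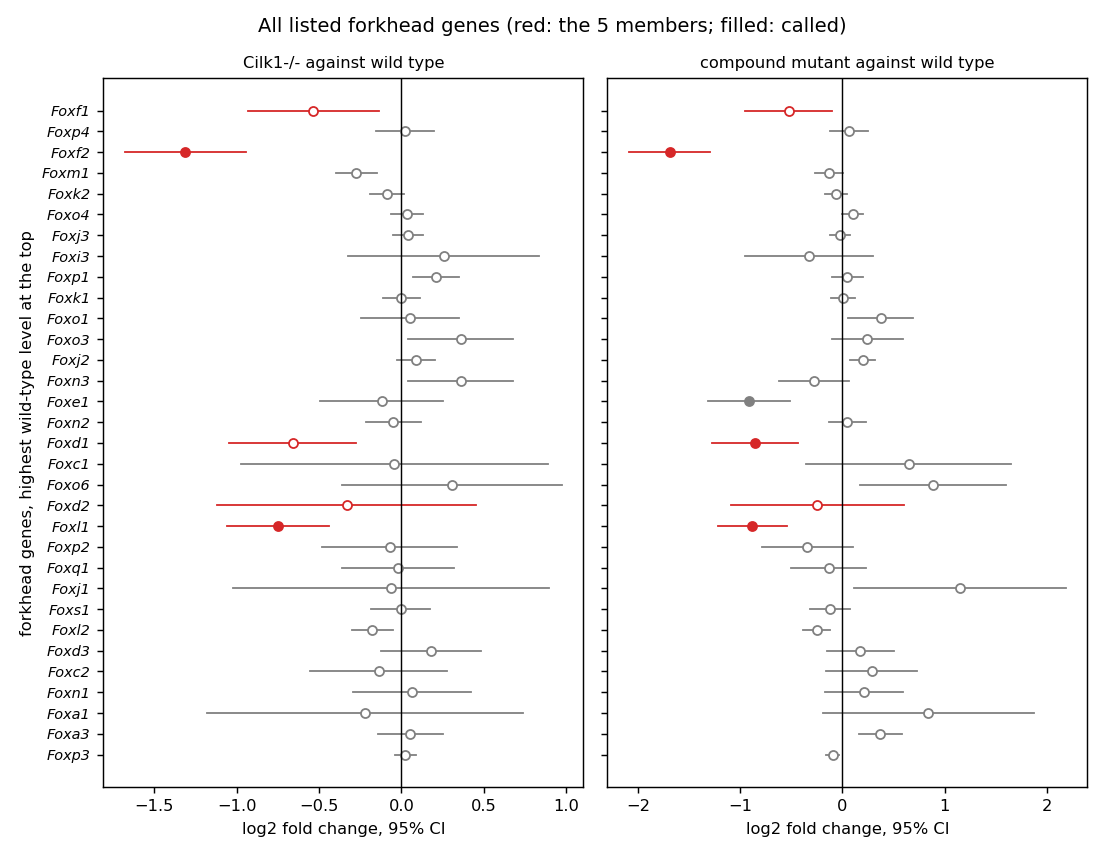
Log2 fold change with its 95% confidence interval (limma) of all 32 listed forkhead genes in *Cilk1*-/- and in the compound mutant against wild type, ordered by their wild-type level. The 5 genes described here are red and called genes are filled, and *Foxe1* in the compound mutant is the only filled grey point.

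In the Hh pathway, 19 of 19 genes sought were listed. In *Cilk1*-/- 2 of 19 fell, and in the compound mutant 3 of 19. None was called higher in either, 13 of 19 had a lower mean in each mutant, and 0 of 19 were called between the mutants. The ligands *Shh*, *Ihh* and *Dhh* were not called, and the change of *Shh* was 0.33 (adjusted p = 0.775 in limma) in *Cilk1*-/-, against -0.03 (0.982) in the compound mutant. *Shh* libraries lay at 4.18 to 5.18 in wild type and 4.79 to 5.66 in *Cilk1*-/-, and compound mutant libraries 1 to 3 at 3.66, 4.02 and 6.51, so that 2 lay below all wild-type libraries and 1 above all. The mean change in this group thus rests on single libraries: it was -0.92 without compound mutant replicate 3 (adjusted p = 0.0725 in limma) and 0.51 without replicate 1 (0.625), and was not called in any fit that left out a library. Against *Cilk1*-/-, *Shh* was called lower in the compound mutant without replicate 3 (-1.26, adjusted p = 0.0262 in limma) and in no other such fit. Of the receptors and co-receptors, *Ptch1*, the receptor that Hh signals induce, changed by -0.89 and -1.66 (adjusted p of 0.0374 and 0.00284), and *Hhip*, which binds and holds back the ligand, by -0.45 and -0.94 (0.0450 and 0.00245). Of the Gli factors, *Gli1*, itself an Hh target, changed by -0.90 and -1.43 (0.0343 and 0.00500). With the replicate block, *Ptch1* and *Gli1* lost their calls in *Cilk1*-/- (0.149 for each), and all 3 kept theirs in the compound mutant (0.0342, 0.0431 and 0.0473). They also kept them without compound mutant replicate 1, at -1.37 for *Ptch1*, -1.13 for *Gli1* and -0.86 for *Hhip*. Between the mutants, *Hhip* changed by -0.49 (adjusted p = 0.0405 in limma, 0.215 with the block) and missed the call on its fold change. Without compound mutant replicate 1 its adjusted p was 0.0837. *Ptch1* (-0.77), *Hhip* and *Gli3* (-0.33) were wholly lower in the compound mutant than in *Cilk1*-/-, as were 9.30% of all genes. None of the 6 transducers, which include *Smo* and *Sufu*, was called. Over the 19 genes the median change was -0.07 for *Cilk1*-/- and -0.13 for the compound mutant. Over the 5 forkhead genes it was -0.66 and -0.86. The 19 include ligands, co-receptors and transducers, whereas the 5 were chosen as Hh-dependent genes with earlier results known. These medians therefore do not compare how strongly the lists respond.

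The genes nearest to *Foxf2* in profile were *Ptch1*, *Gli1*, *Hs3st6*, *Sostdc1* and *Tmem91*. Likeness was measured as the root mean square difference over the 11 libraries after each gene was centred on its wild-type mean, and the 5 lay at 0.332 to 0.459. All 11 libraries and the genotypes themselves enter this measure, so genes with like changes are near by construction. *Foxl1* and *Foxd1* ranked 22nd and 27th from *Foxf2*, *Foxf1* 82nd and *Foxd2* 1241st. For *Foxl1* the nearest were *Kcng1*, *Ick*, *Foxd1*, *Nmbr* and *Grik3*, at 0.154 to 0.211. For *Foxd1* the nearest included *Grik3*, *Kcng1*, *Frzb* and *Hmga2*, at 0.144 to 0.175.

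Markers of the cell types in the dissected tissue moved in part with these results. Of 10 dental mesenchyme markers, all listed, none was called, 8 had a lower mean in *Cilk1*-/- and 10 in the compound mutant, and their median changes were -0.18 and -0.40. Of the 10, 4 lay wholly below wild type in *Cilk1*-/- (10.7% of all genes) and 2 in the compound mutant (9.05%). The summed linear value of all 10 was 923 to 1020 in wild type, 812 to 929 in *Cilk1*-/- and 584, 972 and 701 in compound mutant replicates 1 to 3. Among these 3 libraries, *Foxf1* and *Foxf2* were likewise lowest in replicate 1 and highest in replicate 2. *Foxl1* and *Foxd1* were highest in replicate 2. *Foxd1* was lowest in replicate 3, whereas *Foxl1* hardly differed between replicates 1 and 3 (0.40 and 0.37). *Foxd2* was lowest in replicate 1 and highest in replicate 3. The summed value of the 6 neuron markers was 17.3 to 22.9 in wild type, 28.2 to 30.9 in *Cilk1*-/- and 32.6 to 179 in the compound mutant, where *Tubb3* and *Isl1* were called higher (adjusted p of 0.0268 and 0.0190 in limma, 0.127 and 0.0971 with the block). Both stayed called without compound mutant replicate 1, where they were higher by 1.03 and 0.68. That of the 6 cartilage markers was 21.8 to 27.3, 22.5 to 34.4 and 36.6 to 595, and that of the 8 skeletal muscle markers was 9.11 to 26.6, 17.8 to 46.6 and 6.21 to 8.61. Of the muscle markers 3, *Actc1*, *Acta1* and *Myh3*, which encode proteins of the contractile apparatus, were called between the mutants. They differed by -2.35, -1.71 and -1.52 (adjusted p of 0.0223, 0.0417 and 0.0318 in limma, and 0.181, 0.218 and 0.193 with the block). Of the 3, *Actc1* alone was called without compound mutant replicate 1 (0.0443, 0.0856 and 0.0599). Dental epithelium markers summed to 1170 to 1527, 1280 to 1549 and 677 to 1562. The 6 erythroid markers summed to 2829 to 3731, 2894 to 4114 and, in compound mutant replicates 1 to 3, 2804, 3649 and 1035. None of the 6 was called, and all 6 had a lower mean in the compound mutant than in wild type (median -0.50). Their sum was lowest in replicate 3, the library in which *Foxd1* and, by a small margin, *Foxl1* were lowest. The 7 bone markers, of which none was called, summed to 138 to 240, 153 to 202 and 99.9 to 323. The part of these cell types in the results was not tested. Without compound mutant replicate 1, *Foxf2* and *Foxl1* stayed called in the compound mutant and *Foxd1* did not. The share of all genes called in that fit is not given here.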

How the data were processed

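Poly-A RNA was sequenced by the authors, and per the labels the reads were mapped to mm10 with HISAT2 2.0.5 and counted with featureCounts 1.5.0-p3. The authors deposited log2 values of 16755 genes, which fit log2(value + 1) of FPKM. A further adjustment is not described in the sources used here, although 257 genes have values under 0. Turned back, the libraries sum to 339970 to 364615. Counts were not used here, so the depth is unknown, and the errors measure only how libraries of a genotype differ, which may be technical in part.

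The genotypes were compared across all genes with limma 3.58.1 in R 4.3.3 (lmFit, then eBayes with trend and robust) in one fit over 11 libraries, with Benjamini-Hochberg adjustment. Deviations from the genotype mean of same-numbered wild-type and *Cilk1*-/- libraries had correlations over all genes of -0.74, -0.89, -0.85 and -0.79. The labels describe littermates but do not say that a replicate number marks a litter, and the correlations are negative, whereas libraries that deviate together give positive ones. The numbers are therefore not shown to pair these libraries, and the block is given as an alternative because the same-numbered values are not independent. No step that would give this is described in the sources used here, and its cause was not tested, so what the p-values measure, with or without the block, is uncertain. The compound mutant libraries are placed in the block by number alone. Single genes were also compared by exact permutation.

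The genes and lists were chosen with earlier results of these data known. Named were the 5 genes, called genes of each list or else up to 4 with the highest level, *Cilk1*, 3 listed neighbours on each side, and the 5 nearest profiles of each called member. For *Foxd1*, 1 of these profiles is not reported here. *Foxf2* and *Foxl1* are also among the genes that the study of these samples singled out as lower, so their direction is not independent evidence. Positions come from GENCODE vM21, and sequences from RefSeq. Alternatives were other samples in the fit, covariates, filters, pseudocount, scalings, thresholds and leaving out each library. Plots were drawn with matplotlib 3.10.9 in Python 3.11.15.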

Additional observations from a re-analysis of the deposited data

How the results depend on the processing

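The count of called forkhead genes depended on the covariates and the threshold. In *Cilk1*-/- against wild type it was 2, and 0 with the replicate block, 0 with the compound mutant placed in pair 4 (chosen after seeing the data), 1 with the set of libraries as a term, 1 after a filter on the mean log2 value (1 or more), which leaves out *Foxl1*, 1 at a fold change of at least 2, and 3 in a fit of the 2 genotypes alone. It was 1 to 3 on leaving out each library in turn. For the compound mutant against wild type it was 3, and 1 with the replicate block, 0 with the compound mutant in pair 4, 1 with the set as a term, 1 in a fit of the 2 genotypes alone, 1 at a fold change of at least 2, and 2 to 4 on leaving out each library. It was 0 between the mutants under every alternative run. The share of all genes called is given in the Results for the main fit, the 2 replicate blocks and the unadjusted threshold only. The other counts have no such share to be read against. The replicate block changed no call of these 5 genes other than those given with the results. Against wild type, *Foxf2* stayed called in all 11 fits that left out a library, and its change was -1.40 to -1.25 in *Cilk1*-/- and -1.87 to -1.45 in the compound mutant. Of the log2 fold changes of single genes, 258 kept their direction and call, 27 lost their call, 4 gained one and 8 turned. Those that turned were not called. *Foxd2* in the compound mutant against wild type ranged from -0.65, without compound mutant replicate 3, to 0.0521, without compound mutant replicate 1. Between the mutants, *Foxf1* was -0.0222 with quantile normalization, -0.0014 and -0.0397 without *Cilk1*-/- replicates 2 and 4, -0.2845 without compound mutant replicate 2, and at most 0.2283. *Foxd1* ranged from -0.4289 to 0.0189, the latter without compound mutant replicate 3. *Foxd2* was -0.0674 without *Cilk1*-/- replicate 3 and -0.3189 without compound mutant replicate 3, and at most 0.3832. The cause was not tested. Under each scaling the median change of all genes lay within 0.021 of 0. The unknown depth limits *Foxl1*, *Foxd1* and *Foxd2* most, since their values are low.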

Other observations

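Genes of oral and palatal mesenchyme, a tissue in which the Foxf genes act, gave few calls, and the replicate block ended each of them. Of 16 genes sought, all were listed, and in *Cilk1*-/- none was called, with a median change of -0.07. In each mutant 6 of the 16 lay wholly below wild type, where 10.7% (*Cilk1*-/-) and 9.05% (compound mutant) of all genes did. Of the 16, 2 fell in the compound mutant against wild type. *Shox2*, a homeobox gene of the anterior palate, fell by 1.06 on the log2 scale (adjusted p = 0.0116 in limma, 0.0814 with the replicate block), and *Fgf7*, a mesenchymal growth factor, by 0.62 (0.00622, and 0.0797 with the block). Both stayed called without compound mutant replicate 1, at -0.97 and -0.62. The median change of the 16 genes was -0.36. Against *Cilk1*-/-, *Fgf7* fell by 0.63 (0.00933, and 0.138 with the block) and *Meox2*, a homeobox gene of the posterior palate, by 0.61 (0.0478, and 0.225 with the block), and *Shox2* changed by -0.74 (0.0505), not called. The call of *Fgf7* was kept (-0.63) and that of *Meox2* was lost (-0.49, adjusted p = 0.102) without that library. *Fgf18*, chosen after its values were seen as a gene that Foxf factors restrain in the palate, changed by 0.07 in *Cilk1*-/- and -0.40 in the compound mutant and was not called (0.888 and 0.269).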
